A study of Mus musculus with 8 samples.

Results

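The HIN-200 family genes, a cluster of interferon-inducible genes on chromosome 1 of the mouse that includes sensors of DNA, were followed in thymocytes of wild-type mice of the strains BALB and B6. The members were 9 listed genes, Aim2, Pyhin1, Pydc3, Pydc4, Ifi203, Ifi204, Ifi205, Mnda and Mndal. All 9 occurred among the 23420 gene symbols of the count files. RNA sequencing of thymus gave 8 libraries in 4 groups of 2, which were BALB whole thymocytes, B6 whole thymocytes, BALB DP thymocytes and B6 DP thymocytes. Whole thymocytes hold every stage of T cell development and the few other cells of the organ. DP thymocytes carry both CD4 and CD8. They were sorted as negative for CD69, which marks activated cells, and as low to medium for H57, which stains the T cell receptor. All mice were wild type, and the labels give neither a substrain, an age nor a sex. Since the labels do not state that libraries of 1 group are different animals, p-values measure only the spread between these libraries, which may be technical in groups other than BALB whole.

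HIN-200 proteins are named for the HIN domain, which binds DNA, and most also carry a pyrin domain, which binds other pyrin-domain proteins. AIM2 binds double-stranded DNA in the cytosol and recruits the adaptor ASC, encoded by Pycard, which activates caspase-1 in the complex known as the inflammasome. Other members act in the nucleus on transcription and cell growth, and IFI204 is the mouse protein most often set beside human IFI16. Type I interferon raises the transcription of many of them, and the content and expression of the cluster are known to differ between inbred mouse strains. In thymocytes their role is less well described than in macrophages.

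In RefSeq's annotation of GRCm38.p6, the patch level of the mm10 build that the submitters name, the cluster ran from Aim2 to Ifi205, over chr1:173349547-174031755 or 682 kb. It held 13 protein-coding genes, of which 11 were listed in the count files under a current or older symbol that RefSeq gives. The other 2, Ifi206 and Ifi214, were not matched to a symbol by name or synonym, and a listed symbol without a match may stand for one of them. Pydc4, Pyhin1, Pydc3 and Mnda are older symbols of the genes that RefSeq calls Ifi213, Ifi209, Ifi208 and Ifi211, and AI607873, a cluster gene outside the 9, is Ifi207. From left to right the members stood in the order Aim2, Pydc4, Pyhin1, Pydc3, Ifi204, Mndal, Mnda, Ifi203 and Ifi205. Aim2, Pyhin1 and Pydc3 lie on the plus strand and the other 6 on the minus strand.

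RefSeq promoter windows of 300 bases, from 250 before a transcript's start to 50 after it (build GRCm38.p6), were available for 8 of the 9 members in 10 windows, and not for Ifi204. They were searched on both strands for the core of the interferon-stimulated response element, to which interferon-activated factors bind. The letters searched were GAAA, any 2 bases and GAAA, which on the other strand read TTTC, any 2 bases and TTTC. It was found in 7 of the 10 windows, belonging to 6 of the 8 genes, and in 3.43% of the 32817 promoter windows of the whole table. The windows of Aim2 and Pyhin1 held no match. The other interferon motif searched, TTC, any 3 bases and GAA, which reads the same on both strands, was found in none of the 10 windows and in 8.29% of all windows. The stretches of 70 bases around the core are shown because the members were compared by strain and population below, and because some pairs of members carry nearly the same promoter. Capitals mark the match, or in Pyhin1 the bases aligned to it.
Pyhin1 (chr1:173630750-173630819, plus strand): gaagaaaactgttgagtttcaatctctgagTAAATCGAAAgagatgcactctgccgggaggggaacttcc
Ifi214 (chr1:173535997-173536066, minus strand): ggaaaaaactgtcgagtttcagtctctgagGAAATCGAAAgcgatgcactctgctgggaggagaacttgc
Pydc3 (chr1:173673577-173673646, plus strand): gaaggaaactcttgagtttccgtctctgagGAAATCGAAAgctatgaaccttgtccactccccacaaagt
Pydc4 (chr1:173599306-173599375, minus strand): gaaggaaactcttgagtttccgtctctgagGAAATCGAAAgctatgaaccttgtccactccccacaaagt
Ifi203 (chr1:173942488-173942557, minus strand): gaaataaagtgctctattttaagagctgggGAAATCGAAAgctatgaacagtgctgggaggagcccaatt
Mndal (chr1:173880184-173880253, minus strand): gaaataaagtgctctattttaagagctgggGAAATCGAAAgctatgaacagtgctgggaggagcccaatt
Mnda (chr1:173913044-173913113, minus strand): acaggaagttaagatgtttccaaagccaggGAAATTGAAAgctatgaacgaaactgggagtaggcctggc
Ifi205 (chr1:174031850-174031919, minus strand): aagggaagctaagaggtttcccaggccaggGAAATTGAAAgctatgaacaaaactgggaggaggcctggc

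Over the whole windows, Pyhin1 and Ifi214, a cluster gene not analysed here, were 95.3% identical, 1 window of Mndal and 1 of Ifi203 90.7% and Pydc4 and Pydc3 89.5%. The windows of Aim2 and Ifi205 were at most 53.9% and 53.6% identical to any other of the cluster. Within the core, counted from 1 at its 5′ end, Pyhin1 differed from Ifi214 only by the substitution G1T. Their windows also differed outside the core, with 287 identical bases in 301 aligned columns. These are sequences of the reference strain, and the BALB sequence was not used here. A match describes these letters and is no evidence of a factor bound there.

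Copies of the family also share transcript sequence, which bears on the counts, since the authors' counting left out reads that aligned to more than 1 place. Of all windows of 50 bases in a gene's GENCODE M21 transcripts, the share that also occurred in another gene or pseudogene of the cluster was 0.228% for Aim2, 12.2% for Ifi203, 15.6% for Pydc4, 18.6% for Ifi205, 19.4% for Ifi204, 19.6% for Mndal and 20.8% for Pydc3. It was 33.4% for Pyhin1, all of it with Ifi214, and 72.8% for Mnda, of which 44.7% of all windows were with Ifi205. Counts of Mnda are therefore the least certain. The RefSeq spans of Mndal and Ifi203, which lie on the same strand, do not overlap. Whether GENCODE transcripts of Mndal overlap exons of Ifi203 was not tested. The annotation behind the authors' counts is not stated, so how reads in any such overlap were counted is not known.

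The libraries held 2632083 to 5974684 counts in genes, and 12.8% to 21.2% of their reads did not align. BALB DP replicate 1 stood apart with 3.14% of its counts in the ribosomal precursor gene Rn45s, against 5.11% to 8.35% in the others. BALB whole replicate 1 had 12313 counts of Xist and 0 of the Y-linked Ddx3y, while the other 7 libraries had 444 to 1177 counts of Ddx3y. BALB whole replicate 2 held both, with 725 counts of Ddx3y and 203 of Xist, against 6 to 24 of Xist in the DP and B6 whole libraries. The 2 BALB whole libraries therefore do not come from the same animals. The genes listed as DP markers (Rag1, Rag2, Dntt, Cd4, Cd8a and Ptcra) were present in every group. Levels are CPM, counts scaled by the TMM effective library size. Of the 9 members, 8 passed the filter on low counts and were tested, and Ifi205 did not. Values over 2 libraries are mean ± SD, log2 fold changes are from edgeR's quasi-likelihood fit ± SE, and adjusted p-values are Benjamini-Hochberg values over all 11409 genes tested, with a call at an adjusted p under 0.05. Intervals and floors from counts cover counting error only. With 2 libraries a group, a lack of overlap is easily reached by chance, and its share over all genes was not counted.

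Mndal was the most abundant member per length of transcript in all 4 groups, and the second place differed between the strains. On the scale of CPM per kb of the longest coding transcript, Mndal had 39.8 and 39.9 in BALB whole, 43.9 and 45.9 in B6 whole, 27.9 and 29.5 in BALB DP and 29.9 and 31.6 in B6 DP libraries. Ifi203, a nuclear member, came next in both BALB groups, with 19.6 and 21.1 CPM per kb in whole and 14.8 and 16.5 in DP libraries. In both B6 groups the second member was Pyhin1, the mouse relative of human IFIX, with 13.4 and 15.7 CPM per kb in whole and 9.24 and 10.04 in DP libraries, above Ifi203. In the B6 groups Ifi203 and then Aim2 followed without overlap. In both BALB groups Aim2 came directly after Ifi203.

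Below these the order was less certain. In BALB whole thymocytes Pydc3, Pyhin1 and Ifi204 followed in that order without overlap between libraries, while Ifi205 and Pydc4 overlapped at the bottom. In B6 whole thymocytes Pydc3 and Pydc4 came next without overlap, Mnda lay within the range of Ifi205, and Ifi204 was the lowest, at 0.53 and 0.54 CPM per kb. In BALB DP thymocytes Ifi204 came after Aim2, and the ranges of Pyhin1, Pydc3 and Ifi205 overlapped below it. In B6 DP thymocytes 5 members had at most 0.153 CPM per kb in both libraries. They were Pydc4, Pydc3, Mnda, Ifi205 and Ifi204.

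**Figure D1:**
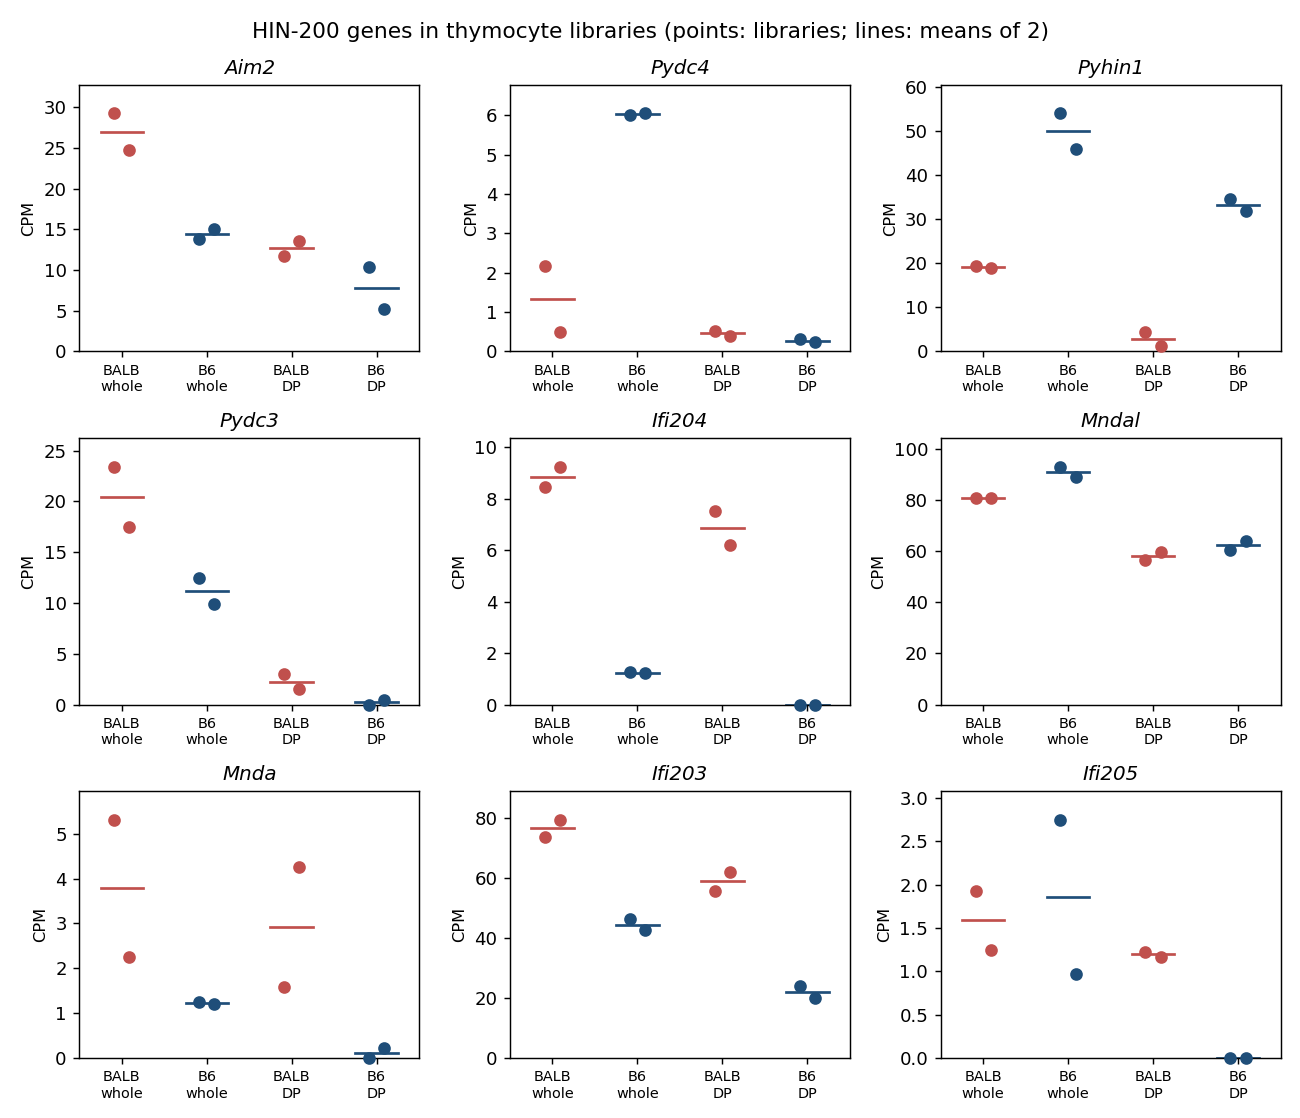
Levels of the 9 HIN-200 genes in CPM (vertical axis, linear and from 0, with its own scale in each panel) in the 8 libraries, with groups along the horizontal axis. Points are libraries and lines are means of 2. Pyhin1 is low in BALB DP (1.16 and 4.38 CPM) and Ifi204 is at 0 in both B6 DP libraries, while Mndal lies between 56.6 and 93.0 CPM in all libraries.

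The strain comparison within sorted DP thymocytes asks which members differ between BALB and B6 at 1 defined stage. Pyhin1 was lower in BALB, and Ifi203, Ifi204, Pydc3 and Mnda were higher, so 5 of the 8 members tested were called, 4 higher and 1 lower. Over all genes tested 13.0% were called in this comparison, 6.85% higher and 6.14% lower in BALB. Aim2, Pydc4 and Mndal did not pass.

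Pyhin1 (chr1:173630859-173647928) had 4.38 and 1.16 CPM in BALB DP libraries, against 34.5 and 31.8 CPM in B6 DP libraries. The highest BALB value lay far below the lowest B6 value. The log2 fold change was −3.32 ± 0.31 (edgeR adjusted p = 3.10e-05), and the call was kept in 17 of 17 alternative fits, with values from −4.80 to −2.89. The spread within BALB was wide, as the 2 libraries held 25 and 3 counts.

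Ifi204 (chr1:173747293-173767069), which encodes the DNA sensor p204, had 7.53 and 6.21 CPM in BALB DP libraries, or 43 and 16 counts, against no counts in either B6 DP library. A count of 0 there allows up to 0.397 CPM (3 counts over the group). On counts summed over the libraries of a group, Ifi204 was at least 17.95-fold higher in BALB DP (edgeR adjusted p = 0.000205), and it passed in all 16 alternatives in which it was tested.

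Ifi203 (chr1:173920400-173942866) had 55.7 and 62.1 CPM in BALB DP libraries, against 23.9 and 20.1 CPM in B6 DP libraries, without overlap. Its log2 fold change was 1.42 ± 0.15 (edgeR adjusted p = 0.000110), with values of 1.30 to 1.54 and a call in 17 of 17 alternatives. Its promoter stretch, printed above from the reference strain, is the same over 70 bases as that of Mndal. The part of the promoter in any strain difference was not tested.

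Pydc3 and Mnda were called on few counts. Pydc3, named for its pyrin domain, had 17 and 4 counts in BALB DP libraries, against 0 and 2 in B6 DP libraries, a ratio of 9.58 (95% exact counting interval 2.34 to 84.3; edgeR adjusted p = 0.0290). Mnda, whose protein carries pyrin and HIN domains, had 9 and 11 counts in BALB DP libraries, against 0 and 1 in B6 DP libraries, a ratio of 18.3 (2.92 to 757; edgeR adjusted p = 0.0363). The groups did not overlap in CPM for either gene. The calls were kept in 10 of 15 alternatives for Pydc3 and 8 of 15 for Mnda, with adjusted p up to 0.258 and 0.162.

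Mndal (chr1:173857215-173880382) had 56.6 and 59.8 CPM in BALB DP libraries, against 60.6 and 64.0 CPM in B6 DP libraries, a log2 fold change of −0.10 ± 0.12 (edgeR adjusted p = 0.610). Aim2 had 11.7 and 13.6 CPM in BALB DP libraries, against 10.4 and 5.26 CPM in B6 DP libraries. The groups did not overlap, and those of Mndal did not either. The 2 B6 libraries differed in Aim2 from each other more than B6 replicate 1 did from BALB. The log2 fold change of Aim2 was 0.72 ± 0.30 and did not pass (edgeR adjusted p = 0.132). Without B6 DP replicate 1 it did pass (1.24, edgeR adjusted p = 0.0479). Pydc4 had 3 and 1 counts in BALB DP and 1 and 1 in B6 DP libraries, which is too few to show a difference. Ifi205, not tested, had 7 and 3 counts in BALB DP libraries, against none in B6 DP libraries, at least 3.04-fold higher. Without B6 DP replicate 2, 3 members were called (Ifi203, Ifi204 and Pyhin1). The share of all genes called was also lower in that fit. Some of the 6 DP marker genes also differed with strain. The summed level of the 6 was 9266 to 9391 CPM in BALB DP, against 15500 to 16406 CPM in B6 DP. Rag1 alone had a mean of 4828 CPM in BALB DP, against 10184 CPM in B6 DP. Of the 6, 3 were called lower in BALB DP, where 6.14% of all genes were. They were Rag1, Dntt and Ptcra, while Rag2, Cd4 and Cd8a did not pass. None of these 6 was at 0 in either group, and their part in the member differences was not tested.

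The same strain comparison in whole thymocytes called 4 of the 8 members tested, against 4.59% of all genes. Ifi203 and Ifi204 were higher in BALB, and Pyhin1 and Pydc4 were lower. Over all genes, 1.98% were called higher and 2.61% lower.

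Ifi204 had 8.45 and 9.24 CPM in BALB whole libraries, against 1.25 and 1.21 CPM in B6 whole libraries, a log2 fold change of 2.82 ± 0.40 (edgeR adjusted p = 0.00183). It was the member whose call held in every alternative that tested it, 16 of 16, with values from 2.73 to 2.88. Ifi203 had 73.7 and 79.4 CPM in BALB whole libraries, against 46.2 and 42.6 CPM in B6 whole libraries. Its log2 fold change of 0.78 ± 0.14 (edgeR adjusted p = 0.00585) passed in 14 of 17 alternatives, and not without either B6 whole library or BALB whole replicate 2 (adjusted p up to 0.119). For both genes the BALB libraries lay above the B6 libraries without overlap.

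Pyhin1 had 19.3 and 19.0 CPM in BALB whole libraries, against 54.0 and 46.0 CPM in B6 whole libraries, a log2 fold change of −1.38 ± 0.23 (edgeR adjusted p = 0.00325). Pydc4 (chr1:173566280-173599348), like Pydc3 named for its pyrin domain, had 2.17 and 0.50 CPM in BALB whole libraries, against 5.999 and 6.05 CPM in B6 whole libraries. Its log2 fold change was −2.13 ± 0.51 (edgeR adjusted p = 0.0327), on 9 and 2 counts in BALB whole and 24 and 25 in B6 whole libraries. Pyhin1 lies between Pydc4 and Pydc3 in the cluster. Pydc4 was lower in BALB whole thymocytes as well, while Pydc3 had a log2 fold change of 0.87 ± 0.28 and did not pass. The call of Pyhin1 held in 14 of 17 alternatives, and was lost without B6 whole replicate 1 or either BALB whole library (edgeR adjusted p up to 0.0570). That of Pydc4 held in 10 of 16, and was lost without any 1 of the 4 B6 libraries or BALB whole replicate 2, and by DESeq2 (adjusted p up to 0.274).

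The remaining members did not pass. Aim2 had 29.2 and 24.7 CPM in BALB whole libraries, against 13.8 and 15.0 CPM in B6 whole libraries, without overlap. Its log2 fold change of 0.91 ± 0.24 lay just outside the threshold (edgeR adjusted p = 0.0576) and passed in 7 of 17 alternatives. Pydc3 had 23.4 and 17.5 CPM in BALB whole libraries, against 12.5 and 9.92 CPM in B6 whole libraries (0.87 ± 0.28, edgeR adjusted p = 0.131). Mnda had 5.31 and 2.25 CPM in BALB whole libraries, against 1.25 and 1.21 CPM in B6 whole libraries (1.60 ± 0.65, edgeR adjusted p = 0.259). Mndal had 80.7 and 80.9 CPM in BALB whole libraries, against 93.0 and 89.0 CPM in B6 whole libraries (−0.17 ± 0.11, edgeR adjusted p = 0.588). Pydc3, Mnda and Mndal did not overlap between the strains either. Ifi205 overlapped, with 8 and 5 counts in BALB whole and 11 and 4 in B6 whole libraries. The share of all genes called fell when any library of whole thymocytes was left out, and so did the count of 4 members. It was 1 (Ifi204) without B6 whole replicate 1 and without BALB whole replicate 2, and 2 (Ifi204 and Pyhin1) without B6 whole replicate 2.

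**Figure D2:**
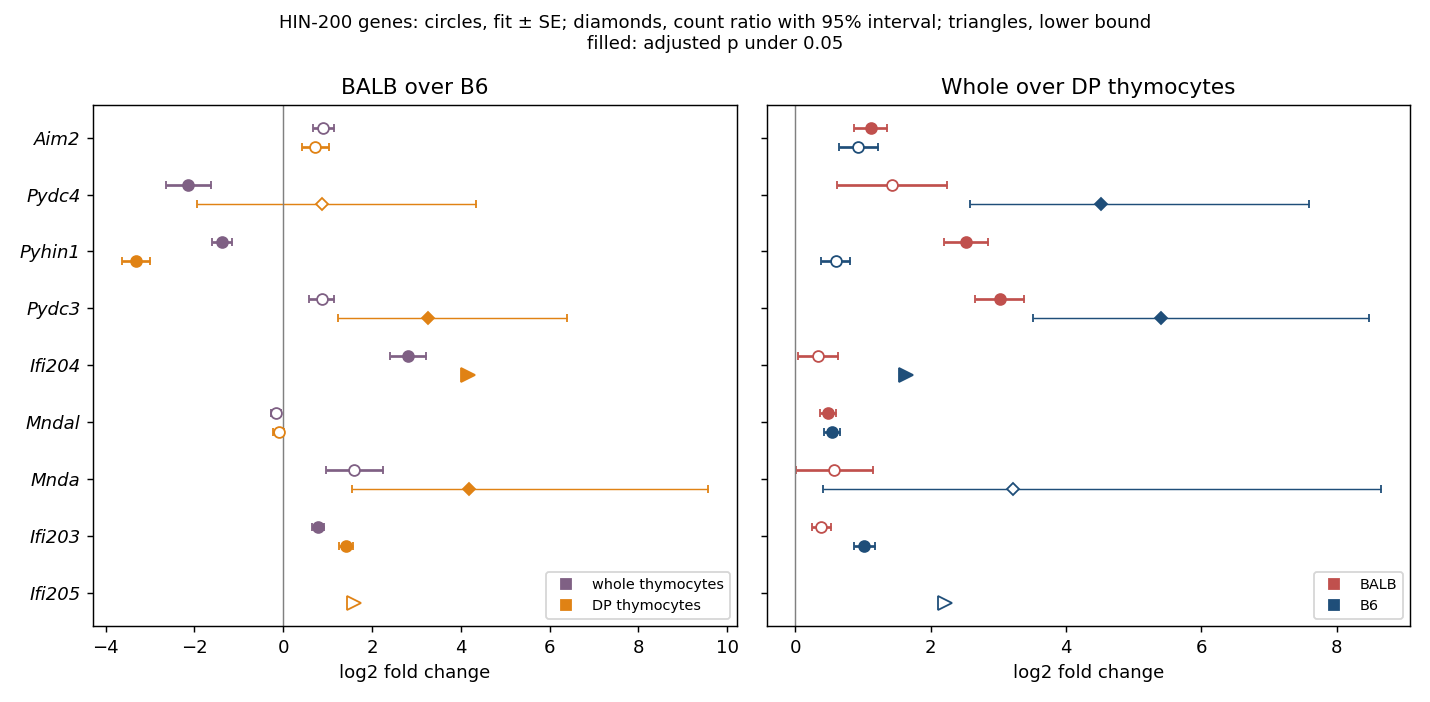
Log2 fold changes (horizontal axes) of the members in the strain comparison (left) and the population comparison (right), with members down the page in their order along the chromosome. Circles are fitted values ± SE, diamonds are count ratios with exact 95% counting intervals where a group had 1 to 3 counts, triangles are lower bounds where a group had none, and filled symbols passed. Pyhin1 lies at −3.32 in DP and −1.38 in whole thymocytes, and in the population comparison every plotted value lies above 0. Ifi205 was not fitted and appears only where a bound could be given.

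Whether the strain difference of a member itself differed between whole and DP thymocytes was tested by the interaction. None of the 8 members was called in edgeR's test, while 5 of the 8 had an unadjusted p under 0.05, against 10.9% of all genes. Over all genes 0.123% were called, 0.105% higher and 0.0175% lower. The DESeq2 Wald test called 1 member, Pyhin1, and limma-voom called 0, with 0.202% and 0.0701% of all genes called. For Pyhin1 the strain difference in whole thymocytes was 1.93 ± 0.40 log2 units above that in DP thymocytes, that is, smaller in size (edgeR adjusted p = 0.124, DESeq2 adjusted p = 0.0259). Over 16 alternatives its adjusted p ran from 2.88e-05 to 0.597. The value was 3.39 without BALB DP replicate 1 and 1.49 without BALB DP replicate 2, the 2 libraries that differ in Pyhin1. For Ifi204, with no counts in B6 DP libraries, the edgeR adjusted p was 0.228 with all libraries. Whether Ifi204 passed depended on the libraries kept. The share of all genes called in the interaction also rose without either BALB DP library. For Mndal the difference was −0.07 ± 0.17, and for Aim2 0.18 ± 0.39. For Ifi203 it was −0.64 ± 0.21 (edgeR adjusted p = 0.297).

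**Figure D3:**
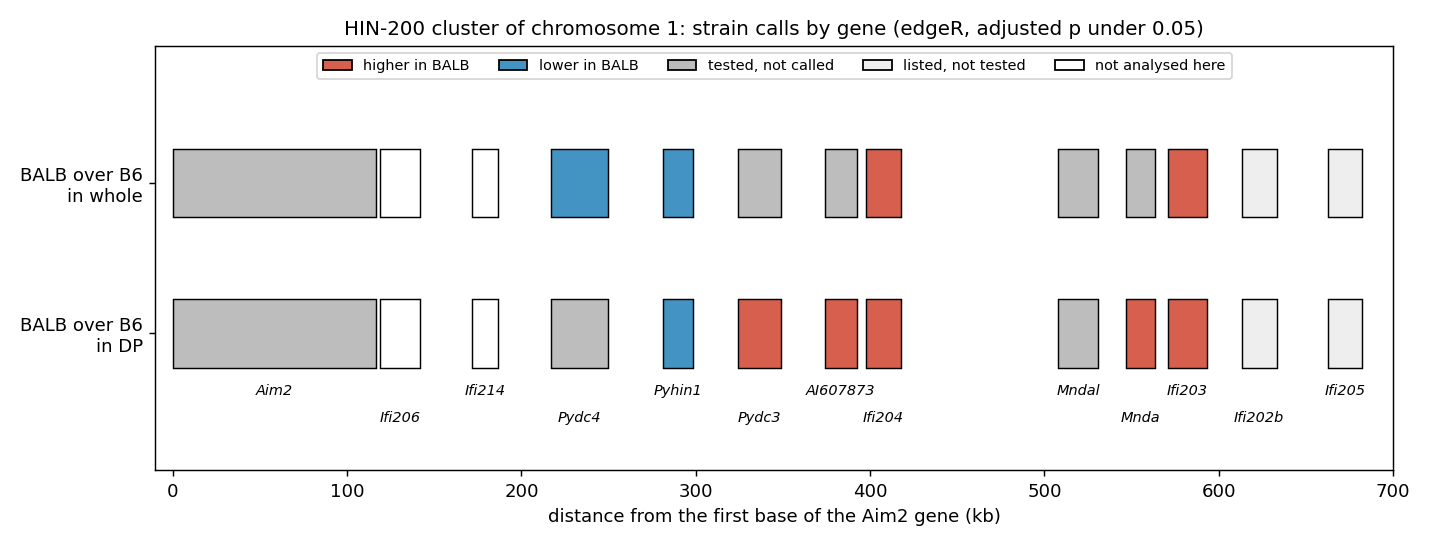
Map of the HIN-200 cluster, with distance in kb from the first base of the Aim2 gene on the horizontal axis, drawn to scale over 682 kb. Boxes are RefSeq genes, coloured by the strain call in whole (upper row) and DP thymocytes (lower row). Genes lower in BALB are Pyhin1 in both rows and Pydc4 in whole thymocytes, and the genes called higher all lie to the right of Pyhin1.

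The comparison of whole with DP thymocytes asks how the members differ between the whole organ's thymocytes and the sorted stage. In B6, 5 of the 8 members tested rose in whole thymocytes and none fell, against 10.2% of all genes called, 6.89% higher and 3.27% lower. They were Pydc3, Pydc4, Ifi203, Ifi204 and Mndal. In bulk libraries of mixed cells a change in the share of a cell type and a change in RNA per cell cannot be told apart.

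Pydc3 (chr1:173673628-173698393) had 12.5 and 9.92 CPM in B6 whole libraries, against 0 and 0.46 CPM in B6 DP libraries. On 91 counts in whole and 2 in DP libraries the ratio was 42.3 (95% exact counting interval 11.4 to 355; edgeR adjusted p = 0.000279). Pydc4 had 5.999 and 6.05 CPM in B6 whole libraries, against 0.31 and 0.23 CPM in B6 DP libraries, a ratio of 22.8 (5.98 to 193; edgeR adjusted p = 0.00261). Both genes passed in 16 of 16 alternatives.

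Ifi203 rose by a log2 fold change of 1.02 ± 0.16 in B6 whole thymocytes (edgeR adjusted p = 0.00176), to the levels given above, and passed in 17 of 17 alternatives. Mndal rose by 0.55 ± 0.12 (edgeR adjusted p = 0.0114), a call lost without any 1 of the 4 B6 libraries (adjusted p up to 0.137). Ifi204, with 5 and 5 counts in B6 whole and none in B6 DP libraries, was at least 3.0986-fold higher (edgeR adjusted p = 0.0234), a call kept in 10 of 15 alternatives and likewise lost without any 1 B6 library. Aim2 (0.93 ± 0.29, edgeR adjusted p = 0.0665), Pyhin1 (0.59 ± 0.21, edgeR adjusted p = 0.109) and Mnda did not pass, although their whole libraries lay above their DP libraries without overlap. Ifi205, not tested, had 11 and 4 counts in B6 whole libraries, against none in B6 DP libraries, at least 4.6479-fold higher. The count was 3 without B6 DP replicate 2 or without B6 whole replicate 1, and 8 without either BALB DP library, or without BALB DP replicate 1 and BALB whole replicate 1 together. Over all genes, the share called was lower in the fits with a count of 3. In the fits with a count of 8, Ifi205 passed the filter, and Aim2, Pyhin1 and Ifi205 were called as well. The share of all genes called was also higher there, at 18.4% and 18.5% without 1 BALB DP library and 23.9% without BALB DP replicate 1 and BALB whole replicate 1.

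In BALB, 4 of the 8 members tested rose in whole thymocytes and none fell, against 17.2% of all genes called, 10.6% higher and 6.59% lower. They were Pydc3, Pyhin1, Aim2 and Mndal. Both population comparisons are set beside strain comparisons that use the same libraries, so they are not independent of them.

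Pyhin1 had 19.3 and 19.0 CPM in BALB whole libraries, against 4.38 and 1.16 CPM in BALB DP libraries, a log2 fold change of 2.53 ± 0.32 (edgeR adjusted p = 0.000330). Pydc3 had 23.4 and 17.5 CPM in BALB whole libraries, against 2.98 and 1.55 CPM in BALB DP libraries, a log2 fold change of 3.02 ± 0.36 (edgeR adjusted p = 0.000193). The calls of both were kept in every alternative that tested them, 17 for Pyhin1 and 16 for Pydc3. Aim2 rose by 1.11 ± 0.25 (edgeR adjusted p = 0.00945; 15 of 17 alternatives) and Mndal by 0.48 ± 0.12 (edgeR adjusted p = 0.0162; 11 of 17). The call of Mndal was lost without BALB DP replicate 1 or either BALB whole library, in the fit to only the 4 BALB libraries and by the DESeq2 Wald test (adjusted p up to 0.0984).

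Ifi204 and Ifi203, the members whose higher level in BALB was called in both populations, did not pass between the BALB populations. Ifi204 had 8.45 and 9.24 CPM in BALB whole libraries, against 7.53 and 6.21 CPM in BALB DP libraries (0.33 ± 0.30, edgeR adjusted p = 0.492). For Ifi203 the log2 fold change was 0.39 ± 0.14 (edgeR adjusted p = 0.0771). Pydc4 and Mnda overlapped between the BALB populations. Fewer members were called without BALB whole replicate 1, alone or together with BALB DP replicate 1. The share of all genes called was also lower in these fits.

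Markers of cells outside the DP sort rose in whole thymocytes alongside the members. Over all genes, 10.6% were called higher in BALB whole and 6.89% in B6 whole thymocytes, the shares for the marker counts of every cell type below. Of 14 tested genes of myeloid and dendritic cells, in which several HIN-200 genes are well known, 10 rose in each strain and none fell. The summed level of the 15 listed was 204 to 230 CPM in BALB whole, against 53.6 to 60.3 CPM in BALB DP, where Clec9a and Cybb were at 0. It was 173 to 175 CPM in B6 whole, against 44.3 to 56.2 CPM in B6 DP, where Itgax and Flt3 were at 0. The 7 mature thymocyte genes summed to 503.8 to 531 CPM in BALB whole, against 96.3 to 98.5 CPM in BALB DP, and 7 of 7 rose. In B6 they summed to 352 to 402 CPM in whole, against 82.9 to 85.7 CPM in DP, where S1pr1 was at 0, and 6 of 7 rose.

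Other cell types had lower summed levels. The 7 thymic epithelial genes summed to 73.9 to 79.6 CPM in BALB whole, against 2.80 to 4.66 CPM in BALB DP (Prss16 and Foxn1 at 0), and 5 of 6 tested rose. In B6 they summed to 22.7 to 33.6 CPM in whole, against 5.34 to 5.71 CPM in DP (Krt5, Krt8 and Foxn1 at 0), and 3 of 6 rose. The 5 B cell genes summed to 13.0 to 16.4 CPM in BALB whole, against 2.72 to 4.73 CPM in BALB DP (Pax5 at 0), and 3 of 4 tested rose. In B6 they summed to 16.2 to 18.7 CPM in whole, against 10.4 to 10.5 CPM in DP, and 2 of 4 rose. Of the erythroid genes, Hba-a1 was at 0 in all 4 groups, while Alas2 was present in each. Alas2 had 103 counts in BALB whole, 84 in B6 whole, 52 in BALB DP and 58 in B6 DP libraries. It did not pass between populations in BALB (edgeR adjusted p = 0.0528) or B6 (edgeR adjusted p = 0.503). The part of any of these cell types in the members' levels was not tested.

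Summed over the 9 members, the family's level was 244 and 235 CPM in BALB whole, 231 and 212 CPM in B6 whole, 142 and 150 CPM in BALB DP and 130 and 122 CPM in B6 DP libraries. The make-up of the sum is given with 2 libraries added up, as shares of counts. Pyhin1 gave 2.34% (exact 95% interval 1.56 to 3.36) of the family's counts in BALB DP, against 26.3% (23.5 to 29.2) in B6 DP, and 7.996% (6.83 to 9.29) in BALB whole, against 22.6% (20.7 to 24.6) in B6 whole. Its share was 3.08% in BALB DP replicate 1 and 0.775% in replicate 2, so the libraries differ by more than the interval of their sum, against 26.6% and 26.0% in the B6 DP libraries. Ifi203 gave 39.9% (37.1 to 42.7) in BALB DP, against 17.3% (15.0 to 19.9) in B6 DP, and 31.9% (29.9 to 34.1) in BALB whole, against 20.1% (18.2 to 22.0) in B6 whole. Mndal gave 33.7% to 49.9% in the 4 groups. These intervals cover counting error only, and a share is of counts, which longer transcripts raise.

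**Figure D4:**
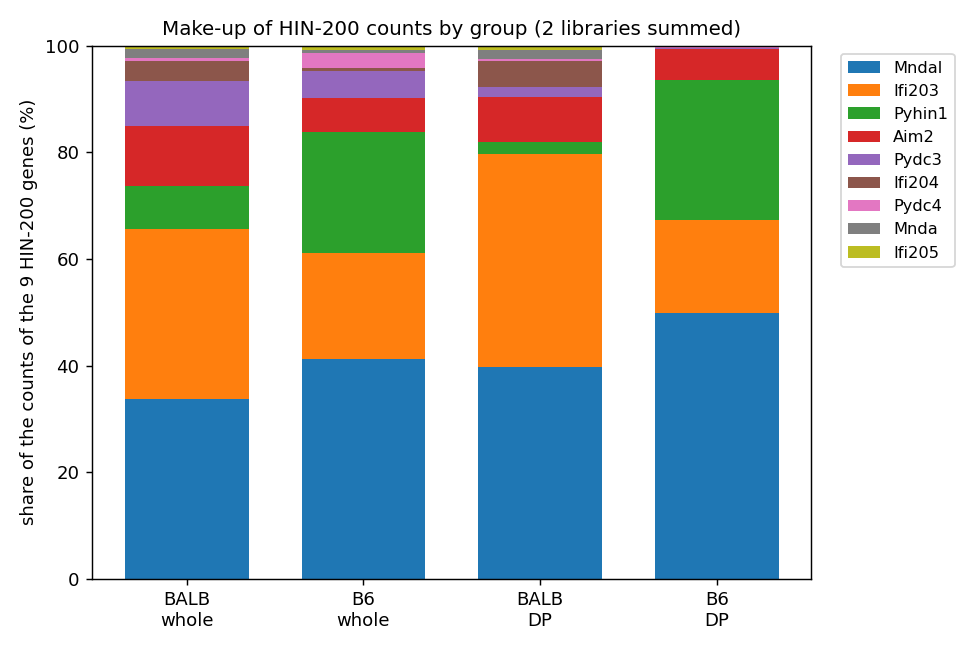
Share of each member in the counts of the 9 HIN-200 genes (vertical axis, %, from 0 to 100) in the 4 groups, with 2 libraries summed in each bar and members stacked in the order of the legend from the bottom. Pyhin1 takes 2.34% in BALB DP (3.08% and 0.775% in its 2 libraries) and 26.3% in B6 DP, and Ifi203 takes 39.9% and 17.3% in the same groups.

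Across the 8 libraries, the members fell into patterns that the correlations of log2 CPM describe. They carry no p, since the 8 libraries form 4 groups and share strain and population. A high r also does not mean changes of like size. Ifi203 and Ifi204 were the most alike pair (Pearson r = 0.964), and both were close to Mnda (0.911 and 0.900). Pydc4 and Mndal had r = 0.847. Pyhin1 had r = −0.596 with Ifi204 and −0.438 with Ifi203. Among all genes with a mean of at least 2 CPM, the 3 most alike were Zbtb38, Cmya5 and Dcbld2 for Aim2 (r = 0.979 to 0.989), Cebpz, Btbd11 and Prdx6 for Pyhin1 (0.976 to 0.988), and Mir17hg, Rpp38 and Alcam for Pydc3 (0.987 to 0.990). They were Kcnq5, Gm10390 and Gm10485 for Pydc4 (0.940 to 0.969), H2-Q4, Adam11 and Gbp7 for Ifi203 (0.978 to 0.995), Sh3pxd2b, Rapgef4 and Pianp for Ifi204 (0.986 to 0.993), Pqlc3, Pgam1 and Bzw1 for Mnda (0.969 to 0.979), and the class II genes H2-Aa and H2-Ab1 with the class I gene H2-K1 for Mndal (0.990 to 0.995).

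Pycard, whose product ASC joins AIM2 to caspase-1, was lower in BALB in both populations. It had 37.8 and 48.9 CPM in BALB DP libraries (given low to high), against 92.3 and 95.3 CPM in B6 DP libraries, a log2 fold change of −1.14 ± 0.15 (edgeR adjusted p = 0.000564). It had 33.0 and 40.1 CPM in BALB whole libraries, against 82.7 and 83.7 CPM in B6 whole libraries, −1.19 ± 0.15 (edgeR adjusted p = 0.000553). In the list of 20 genes of cytosolic DNA sensing and the inflammasome, 15 were tested. With strain, 2 were lower in BALB DP (Pycard and the kinase gene Ikbke) and 1 in BALB whole thymocytes, and none was higher, while over all genes 6.14% were lower in DP and 2.61% in whole thymocytes. The median log2 fold change was −0.06 in DP and 0.05 in whole thymocytes, against 0.00 and 0.02 over all genes. Casp1 had 8 counts in BALB whole and 14 in B6 whole, and 0 in BALB DP and 1 in B6 DP. The cGAS gene, listed as Mb21d1, was at 6.37 ± 1.24 CPM in BALB whole, 7.38 ± 0.52 in B6 whole, 10.3 ± 1.92 in BALB DP and 7.38 ± 0.23 CPM in B6 DP.

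Between populations the same list had 7 of 15 higher in BALB whole and 8 of 15 higher in B6 whole thymocytes, and none lower, against 10.6% and 6.89% of all genes higher. The median was 0.74 in BALB and 0.56 in B6, against 0.00 over all genes in both. Samhd1, which encodes an enzyme that hydrolyses deoxynucleoside triphosphates, had 865 counts in BALB whole and 1 in BALB DP libraries, and 621 in B6 whole and 2 in B6 DP libraries. The STING gene, listed as Tmem173, rose by a log2 fold change of 2.17 ± 0.29 in BALB (edgeR adjusted p = 0.000423) and 1.87 ± 0.30 in B6 (edgeR adjusted p = 0.00221), and Irf7, an interferon regulatory factor, by 1.91 ± 0.29 (edgeR adjusted p = 0.00107) and 1.75 ± 0.30 (edgeR adjusted p = 0.00325).

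Of 14 genes of interferon receptor signalling, 3 were called between strains in DP thymocytes, where 13.0% of all genes were. In BALB DP thymocytes Irf1, a transcription factor, was higher (0.68 ± 0.15, edgeR adjusted p = 0.0104), and the receptor chain gene Ifnar1 (−0.74 ± 0.14, edgeR adjusted p = 0.00499) and Irf9 (−0.68 ± 0.18, edgeR adjusted p = 0.0252) were lower. None of the 14 passed between strains in whole thymocytes (edgeR), where 4.59% of all genes did. Of 16 other interferon-inducible genes tested, none passed in DP and 2 were higher in BALB whole thymocytes, the antiviral genes Mx2 (1.67 ± 0.30, edgeR adjusted p = 0.00690) and Ifi44 (2.05 ± 0.42, edgeR adjusted p = 0.0182). Between populations 10.6% of all genes rose in BALB and 6.89% in B6. Of the 16, 13 rose in BALB whole and 9 in B6 whole thymocytes, and none fell. Their medians were 1.94 in BALB and 1.67 in B6, against 0.00 over all genes in both. Of the 14 receptor signalling genes, 6 rose and 1 fell in BALB, against 10.6% and 6.59% of all genes. In B6, 4 rose, against 6.89% of all genes.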

How the data were processed

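Total RNA of thymus cells was made into libraries with a TruSeq v2 kit, per the labels' protocols, which keeps no strand. The aligner was HISAT2 2.2.0, the build mm10 and the counter HTSeq, per the submitters' processing notes, which also name DESeq2 1.42.1. For the gene annotation, the read length and any filters, the version or value is not stated in the labels. The authors deposited raw counts per gene symbol, 1 file per library. HTSeq's 5 total lines were left out of library sizes, and 22.6% to 30.8% of reads were in genes. Both strains were aligned to a genome of the B6 background, and how that moved BALB counts was not tested.

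The tests ran in edgeR 4.0.16 (R 4.3.3): filterByExpr over the 4 groups (11409 of 17434 genes with a count), TMM scaling and a quasi-likelihood fit with 1 coefficient per group over all 8 libraries, so that the groups share 1 estimate of the spread (common biological coefficient of variation 0.114). Calls used a Benjamini-Hochberg adjusted p under 0.05. Folds against a group without counts are bounds from a floor of 3 counts over the group, and groups with 1 to 3 counts get a count ratio and its exact interval. The alternatives changed the scaling (size factors of DESeq2 1.42.0, or the upper quartile), the filter (none, or at least 1 CPM in 2 libraries with mean count 50 or more), the test (DESeq2's Wald test, or voom in limma 3.58.1) and the libraries or design: a replicate block, only the 4 libraries compared, leaving out each library, and leaving out BALB DP replicate 1 with BALB whole replicate 1. The fit was also run on simulated counts with 1 spread for all genes, and the outcome is not used here. All 9 members are named whatever their values. The 3 genes most alike were named for each tested member, and up to 4 genes with the smallest p of each list, while Casp1 and Mb21d1 were added for their role after their values were seen. Members, lists, comparisons and alternatives were chosen with earlier results of these data known. A further DP marker is not reported here. RefSeq symbols or synonyms matched 23260 of 23420 symbols. Promoters came from RefSeq (GRCm38.p6) and transcripts from GENCODE M21. Promoter windows were aligned with Biopython 1.88, and figures drawn with matplotlib 3.10.9 in Python 3.11.15.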

Additional observations from a re-analysis of the deposited data

How the results depend on the processing

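No called member changed direction under any alternative run. Of 645 fold changes of single members refitted, 41 lost and 29 gained a call. The strict filter tests 4 members. It called 2 between strains in DP, 2 in whole and 2 between populations in B6 (main counts 5, 4 and 5). Over all genes it called 15.4%, 4.17% and 6.56%, against 13.0%, 4.59% and 10.2% in the main fit. Between strains in DP, the DESeq2 Wald test and the fit to only 4 libraries called 3, with 8.9% and 5.38% of all genes called. Between populations in B6, no filter, under which Ifi205 is tested, called 8, with 9.59% of all genes called. In the interaction, no filter and the DESeq2 Wald test each called 1, Pyhin1 (main count 0). Of all genes they called 2.09% and 0.202% there, against 0.123% in the main fit. Without BALB DP replicate 1 and BALB whole replicate 1 together, more members were called between populations in B6 and in the interaction, and fewer in BALB. The share of all genes called moved the same way in each. Leaving out single libraries gave 3 to 5 members between strains in DP, 1 to 5 in whole, 3 to 8 between populations in B6, 2 to 5 in BALB and 0 to 2 in the interaction. A group with 1 library left was assumed to vary like the others, and the share of all genes called also varied between these fits. Except for the settings named, the cause was not tested. Over all genes the calls ran from 509 to 3493 between strains in DP (1482), 214 to 1050 in whole (524), 378 to 2809 between populations in B6 (1159), 910 to 3976 in BALB (1961) and 0 to 1311 in the interaction (14).

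The replicate numbers share only a number: deviations of same-numbered libraries correlated by −0.04 to 0.06 between groups. With the replicate block, 4 members were called between strains in DP, where Mnda was lost, and 4, 5, 4 and 0 in the other comparisons. Members with under about 20 counts in a group (Ifi205, Mnda, Pydc4, and Pydc3 and Ifi204 in B6) are limited by depth.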

Other observations

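Of the cluster genes outside the 9 members, AI607873 (Ifi207) followed the pattern of its neighbour Ifi204 in DP thymocytes, with 7 and 5 counts in BALB DP libraries, against none in B6 DP libraries, at least 3.65-fold higher (edgeR adjusted p = 0.0221). In whole thymocytes it had 4.59 and 6.24 CPM in BALB, against 3.999 and 2.90 CPM in B6, a log2 fold change of 0.65 ± 0.40 that did not pass (edgeR adjusted p = 0.554). Between populations it rose by 1.86 ± 0.47 in BALB whole thymocytes (edgeR adjusted p = 0.0202), and in B6, with none in DP thymocytes, it was at least 8.676-fold higher in the whole population (edgeR adjusted p = 0.00350). Ifi202b, whose product has HIN domains without a pyrin domain and binds AIM2 as an inhibitor, had 3 and 6 counts in BALB whole libraries, 1 and 0 in BALB DP libraries and none in any B6 library. Against a floor of 3 counts it was at least 2.99577-fold higher in BALB whole thymocytes, without a test, since it did not pass the filter.

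Of 76 genes starting within 2 Mb of the cluster, 26 were tested. Between strains 6 were called in DP (2 higher and 4 lower in BALB, where 13.0% of all genes were called) and 3 in whole thymocytes, all lower (4.59% of all genes). The lower ones in both were Vangl2, a planar polarity gene, with −1.14 ± 0.20 in DP and −1.22 ± 0.20 in whole thymocytes (edgeR adjusted p = 0.00343 and 0.00385), and the lymphocyte receptor genes Slamf6 (−0.85 ± 0.12 and −0.68 ± 0.11, edgeR adjusted p = 0.000669 and 0.00414) and Slamf1 (−0.43 ± 0.11 and −0.59 ± 0.11, edgeR adjusted p = 0.0242 and 0.00926).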
